A study of Mus musculus with 24 samples.

Results

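Amino acid transporters of the solute carrier families Slc1, Slc3, Slc6, Slc7, Slc36, Slc38 and Slc43 were followed in single ovulated mouse oocytes. Genes were taken by symbol alone, and 61 of the 25965 entries of the expression table belonged to these families. No measured value picked a gene, but the families were chosen with earlier results of these data known. The name describes the families and not each member, since Slc6a4 carries serotonin, Slc6a8 creatine and Slc43a3 purine nucleobases. A mean of at least 1 RPM (reads per gene, scaled to a library of 1000000 reads) over the oocytes was reached by 23 members, among 10987 genes of the table at that level.

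Amino acid carriers differ in how they are built and driven. The Slc7 light chains carry the substrate but need a heavy chain, Slc3a2 or Slc3a1, to reach the membrane, whereas Slc1, Slc6 and Slc38 proteins work alone and draw on the sodium gradient. Slc6a9 encodes the glycine transporter GLYT1. In mouse eggs and early embryos it takes up glycine as an organic osmolyte, and so sets egg volume after ovulation. A growing oocyte also receives amino acids through gap junctions from its cumulus cells, which express carriers such as Slc38a3 that the oocyte itself is known to lack.

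The study asked whether raised anti-Müllerian hormone (AMH), the granulosa cell hormone that restrains follicle recruitment, changes the transcripts of the oocyte. Oocytes of Thy1.2-AMHTg/0 mice, in which the Thy1.2 promoter drives AMH, were set against oocytes of wild-type mice with the genotype Thy1.2-AMH0/0, all adult and all naturally ovulated without a hormone treatment being named. Cumulus cells and zona had been stripped from every oocyte before lysis, and SMART-Seq v4 served to amplify the cDNA of each. Each genotype had 4 females, and each of 4 sequencing lanes held 1 female of each genotype. The values cover 10 transgenic and 11 wild-type oocytes and 1 library of the kit's control RNA, whose tissue the labels do not name. The oocytes of a female share their source, so the female is the unit of every test. A further transgenic oocyte of lane 1 and a water-only library were not analysed here.

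Oocyte libraries implied totals of 20441302 to 33341040 reads, at which 3 reads equal 0.0900 to 0.147 RPM, and these limits cover counting error only. Oocyte markers (Gdf9, Bmp15, Zp1 to Zp3 and 3 others) summed to between 14419 and 29121 RPM per oocyte, against 15.3 RPM in the control RNA. The control RNA instead held 13077 RPM of 6 neural markers, which reached at most 11.0 RPM in an oocyte. The 15 cumulus and granulosa markers summed to 0.0972 to 3.29 RPM in transgenic and 0.0978 to 39.9 RPM in wild-type oocytes. Foxl2 and Slc38a3, itself a member, had no read in any oocyte. Hsd3b1 (335), Star (315) and Inha (302) had the most reads. Inha had no read in a transgenic oocyte and reached 13.7 RPM in a wild-type one. Only Star and Fshr averaged higher over the transgenic than over the wild-type females. A somatic trace in some wild-type oocytes was not tested. Amh itself had 1 read over all oocytes.

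The 61 members together made up 1162 ± 164 RPM of an oocyte (SD, n = 21 oocytes), and 5 genes held 80.5% of that sum. In order of mean RPM these were Slc3a2, Slc43a3, Slc7a11, Slc6a6 and Slc6a15. At 1 RPM or more in every oocyte stood 13 members, 25 had reads but a mean under 1 RPM, and 13 had no read in any oocyte. Just inside the limit were Slc38a8 at 1.08 RPM and Slc7a7 at 1.15 RPM, and just outside it were Slc38a1 at 0.931 RPM and Slc43a2 at 0.819 RPM. In the control RNA 49 members reached 1 RPM, and 28 of these did not do so as a mean of the oocytes.

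**Figure D1:**
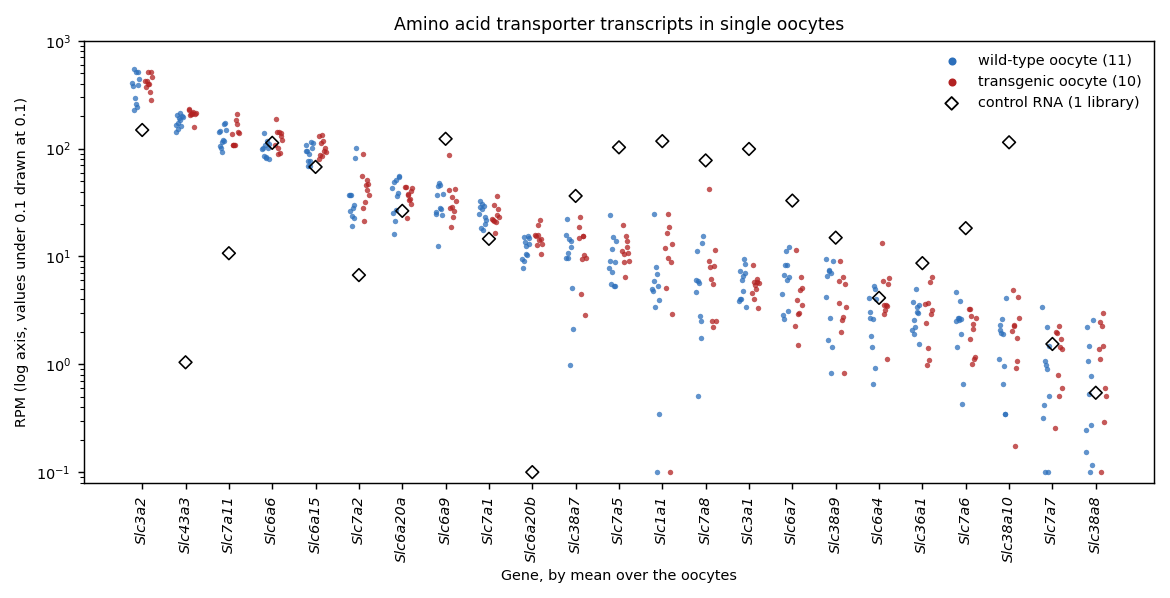
Levels of the 23 members with a mean of at least 1 RPM, in RPM on a log axis, by gene in order of mean; each point is 1 oocyte (11 wild type, 10 transgenic) and the diamond is the control RNA, with values under 0.1 drawn at 0.1. Slc43a3 and Slc7a11 stand above the control RNA in every oocyte, while Slc38a10 and Slc7a5 stand below it in every oocyte.

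Among the heavy chains, Slc3a2 (also called 4F2hc or CD98, chr19:8706882-8723369, GRCm38) was the most abundant member by RPM and by RPM per kb of exon. It ranged from 228 to 552 RPM over the wild-type oocytes (median 393) and from 283 to 511 RPM over the transgenic ones (median 410), against 149 RPM in the control RNA. The lowest and highest oocytes were both wild type, and the genotypes overlapped across nearly their whole ranges. Slc3a1, the heavy chain that pairs with Slc7a9 in the uptake of cystine and dibasic amino acids, was far lower at 5.67 ± 1.73 RPM (SD, n = 21 oocytes). Its partner Slc7a9 had reads in 18 oocytes but averaged 0.723 RPM.

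Divided by exon length, Slc3a2 stood at 112 ± 26.9 RPM per kb (SD, n = 21 oocytes) and Slc3a1 at 2.50 ± 0.764 RPM per kb. The 6 light chains known to pair with Slc3a2 (Slc7a5, Slc7a6, Slc7a7, Slc7a8, Slc7a10 and Slc7a11) summed to 9.50 to 22.5 RPM per kb over the oocytes, with a median of 15.2. The heavy chain thus exceeded its summed partners in every oocyte, by a ratio of 3.86 to 12.2 with a median of 7.54. In the control RNA the order was the opposite, with 42.1 RPM per kb of Slc3a2 and 94.8 RPM per kb of partners, a ratio of 0.444. The size of these ratios depends on the annotated length, which joins all exons of a gene: 3.53 kb for Slc3a2 and 13.9 kb for Slc7a11. Without that division Slc3a2 averaged 396 RPM over the oocytes, against 159 RPM for all 10 light chains together. In the control RNA these were 149 and 309 RPM.

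The partner sum was mostly Slc7a11, the cystine and glutamate exchanger xCT, which feeds cysteine into glutathione. It ranged from 92.4 to 172 RPM in wild-type oocytes (median 120) and from 108 to 211 RPM in transgenic ones (median 138), against 10.7 RPM in the control RNA. Per kb of exon it made up 34.4% to 79.2% of the partner sum over the oocytes, with a median of 67.6%, and 0.811% in the control RNA. Every oocyte exceeded the control library for this gene.

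The other light chains were low. Slc7a5 (LAT1, a large neutral amino acid exchanger) stood at 11.1 ± 4.82 RPM in oocytes (SD, n = 21) and 103 RPM in the control RNA. Slc7a8 (LAT2) stood at 8.02 ± 8.90 RPM and Slc7a6 and Slc7a7 (the y+LAT exchangers) at 2.27 ± 1.07 RPM and 1.15 ± 0.873 RPM. Slc7a10, which exchanges small neutral amino acids in the brain, had 4 reads in 1 oocyte against 2158 reads in the control RNA.

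Slc7a11 is a textbook target of ATF4, the transcription factor that answers amino acid shortage through the amino acid response element, so its promoter is shown for that element. The RefSeq sequence (GRCm38.p6, chr3:50443564-50443863, minus strand, 250 bases before to 50 after the transcript start) held the letters TGATGNAAN in both orientations. The matches begin at positions -66 and -48 from the start and are in capitals.

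Slc7a11 promoter: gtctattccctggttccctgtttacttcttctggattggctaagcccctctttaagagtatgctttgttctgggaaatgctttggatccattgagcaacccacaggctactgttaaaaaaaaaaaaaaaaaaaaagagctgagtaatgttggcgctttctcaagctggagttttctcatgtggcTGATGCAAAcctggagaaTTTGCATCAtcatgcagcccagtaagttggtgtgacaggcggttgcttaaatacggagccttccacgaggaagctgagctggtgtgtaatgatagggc

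Promoters were found for 43 of the 61 members, 17 of them among the 23 tested. The element was searched on both strands and occurred in 3 of the 43, namely Slc7a11, Slc7a7 and Slc1a4, against 4.50% of all 27025 genes with a promoter sequence. Slc1a4, the small neutral amino acid carrier ASCT1, held the element but had reads in only 3 oocytes (37 reads in all). A match is a description of the letters and not a binding site.

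Of the 10 members that carry glycine, proline and neutral amino acids in the Slc6 family, 5 reached 1 RPM. Slc6a9 (chr4:117834506-117875198, GRCm38) was read in all 21 oocytes at 34.3 ± 15.2 RPM (SD), or 6.68 ± 2.96 RPM per kb of exon, and stood at 123 RPM in the control RNA. In the transgenic females it read 41.5 and 86.8 RPM in the oocytes of lane 1, 28.0, 18.9 and 28.8 RPM in lane 2, 35.5, 23.4 and 26.3 RPM in lane 3, and 42.3 and 32.5 RPM in lane 4. In the wild-type females it read 25.8, 24.6 and 37.0 RPM in lane 1, 12.6, 44.9 and 47.9 RPM in lane 2, 28.4, 45.6 and 27.6 RPM in lane 3, and 24.3 and 37.9 RPM in lane 4. The highest value was 1 transgenic oocyte of lane 1, the lowest 1 wild-type oocyte of lane 2, and the remaining oocytes of both genotypes overlapped.

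RefSeq gives Slc6a9 3 separate starts. The sequence around the middle start (GRCm38.p6, chr4:117849100-117849399, plus strand) is shown because it holds TAATTG, an element of the oocyte factor NOBOX, in capitals at position -50 from the start.

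Slc6a9 promoter: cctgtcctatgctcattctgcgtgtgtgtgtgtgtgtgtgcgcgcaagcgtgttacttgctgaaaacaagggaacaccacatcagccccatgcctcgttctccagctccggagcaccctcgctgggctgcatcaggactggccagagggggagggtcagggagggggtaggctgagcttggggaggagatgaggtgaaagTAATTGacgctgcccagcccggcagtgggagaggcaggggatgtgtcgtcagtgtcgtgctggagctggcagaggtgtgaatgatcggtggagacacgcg

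Searched on both strands, TAATTG occurred in 6 of the 43 members with a promoter, against 9.22% of all genes, and only 2 of the 6, Slc6a9 and Slc6a20a, were among the tested members. The related TAATTA, which reads the same on both strands, occurred in 4 of the 43, against 6.12% of all genes. Which of the 3 starts the oocyte uses cannot be told from a value per gene.

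The other Slc6 carriers of this kind followed different patterns. Slc6a15, a proline and branched-chain amino acid carrier best known from brain, stood at 97.1 ± 18.1 RPM (SD, n = 21 oocytes), or 12.5 ± 2.34 RPM per kb, close to Slc6a6 and above Slc6a9 per kb. Slc6a20a and Slc6a20b, neighbouring mouse copies of the imino acid transporter SIT1 that lie head to tail on chromosome 9 (chr9:123636122-123678885 and chr9:123593820-123632565), stood at 37.3 ± 10.9 RPM and 13.6 ± 3.39 RPM. The control RNA held 26.5 RPM of Slc6a20a and no read of Slc6a20b, while every oocyte had at least 7.81 RPM of Slc6a20b. How reads shared by the copies were assigned is not stated, so the split between them is uncertain. Slc6a7, the proline transporter of neurons, stood at 5.60 ± 3.18 RPM. The neuronal glycine transporter Slc6a5 had 11 reads in 2 oocytes, and Slc6a17, Slc6a18 and Slc6a19 had none in any.

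Cationic amino acids had the carriers Slc7a1 and Slc7a2. Slc7a1 (CAT1) was even, at 24.8 ± 5.27 RPM (SD, n = 21 oocytes), or 2.15 ± 0.457 RPM per kb. Slc7a2 (CAT2) varied with the female. The oocytes of transgenic lane 1 read 55.6 and 88.2 RPM and those of wild-type lane 4 read 82.0 and 101 RPM, while the other 17 oocytes lay between 19.2 and 50.6 RPM. On the log2 scale the SD of Slc7a2 between females of a genotype was 0.71 and within a female 0.30. Slc7a3 and Slc7a4 had no read in any oocyte.

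Taurine, serotonin and acidic amino acids each had 1 tested carrier. Slc6a6, the taurine transporter, stood at 112 ± 27.0 RPM (SD, n = 21 oocytes), or 13.3 ± 3.20 RPM per kb, and at 113 RPM in the control RNA. Taurine is, like glycine, a known organic osmolyte. The GABA carrier Slc6a11 had 65 reads in 2 oocytes, and the creatine transporter Slc6a8 had none. Slc6a4, the serotonin transporter, stood at 3.83 ± 2.70 RPM, near the 4.13 RPM of the control RNA. Slc1a1 (EAAC1, the carrier of glutamate, aspartate and cysteine) ranged from 0 to 24.6 RPM in both genotypes, and 1 oocyte of each had no read. The glial glutamate carriers Slc1a2 and Slc1a3 had 4 reads in 2 oocytes and 63 reads in 5 oocytes, against 8216 and 17766 reads in the control RNA.

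Of the 11 sodium-coupled neutral carriers of the Slc38 family 4 were tested. Slc38a7 stood at 11.5 ± 6.16 RPM (SD, n = 21 oocytes) and ranged from 0.993 to 23.1 RPM. Slc38a9, the lysosomal arginine sensor that signals to mTORC1, stood at 4.77 ± 2.85 RPM. Slc38a10 and Slc38a8 stood at 1.94 ± 1.29 RPM and 1.08 ± 0.944 RPM. Of the widely expressed glutamine carriers, Slc38a1 had 480 reads in 15 oocytes and Slc38a2 no read in any.

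The last families were Slc43 and Slc36. Slc43a3 (chr2:84936579-84958509, GRCm38) stood at 195 ± 26.0 RPM, or 43.7 ± 5.81 RPM per kb (SD, n = 21 oocytes), second to Slc3a2 on both scales. It had the smallest SDs of the 12 members highest per kb, 0.18 within and 0.10 between females on the log2 scale. The amino acid carriers Slc43a1 and Slc43a2 of the same family averaged 0.585 and 0.819 RPM. Slc36a1, the lysosomal proton-coupled carrier, stood at 3.04 ± 1.44 RPM, and Slc36a2 and Slc36a3 had no read.

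Ordered per kb of exon, Slc3a2 and Slc43a3 each stood apart from the next gene by more than the sum of their SDs. Slc6a6, Slc6a15, Slc7a11 and Slc6a20a (9.14 ± 2.67 RPM per kb) followed. Neighbours among these differed by less than their SDs, except Slc6a15 and Slc7a11, which differed by more than either SD and less than the sum of both. Slc6a9 and Slc7a2 (4.65 ± 2.47 RPM per kb) came next and likewise overlapped, before Slc7a5 (2.98 ± 1.30), Slc38a7 (2.78 ± 1.49), Slc3a1 and Slc7a1. Summed by role, the heavy chains held 115 RPM per kb, the Slc43 family 43.9, the glycine and imino acid carriers 31.6, the light chains 15.5 and the taurine and GABA group 13.4. The acidic carriers held 1.05 RPM per kb in oocytes and 151 in the control RNA, and the Slc38 family 3.97 and 76.8.

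Against the control RNA the oocytes held few members at higher levels and many at lower levels. Wild-type oocytes, as the mean of 4 female means, were set against the control library for every gene at 1 RPM or more in either. With 1 control library there is no test, and a gene was counted when it passed 4-fold. Of 50 members compared 4 were higher, against 18.6% of the 16119 genes compared, and 35 were lower, against 49.4%. The median log2 ratio of the members was -6.16 and that of all genes -1.93. With transgenic oocytes in place of wild type, 4 of 51 members were higher and 34 lower, and these medians were -4.19 and -2.0. Leaving out the lane 1 or the lane 2 wild-type female, there were 5 higher members, the fifth being Slc7a9, which then passed 1 RPM and had no read in the control library.

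The 4 higher members were Slc43a3, Slc6a20b, Slc7a11 and Slc7a2. Slc43a3 averaged 182 ± 13.2 RPM over the wild-type females (SD, n = 4) and 1.04 RPM in the control RNA, 175-fold apart. Slc6a20b stood at 12.1 ± 1.46 RPM and had no read in the control library. Against a floor of 3 reads in that library, which covers counting error only, it was 89.2-fold higher. Slc7a11 was 12.4-fold and Slc7a2 6.66-fold higher, the latter with 44.7 ± 31.5 RPM in wild-type oocytes. The value of Slc7a2 rests in part on the wild-type female of lane 4, at 91.7 RPM against 26.6 to 33.6 RPM in the others, and without that female it was 4.33-fold. Slc3a2 came next at 2.63-fold and was not counted.

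Of the members read in the control RNA, 9 had no read in any oocyte of either genotype. With a floor of 3 reads over the wild-type libraries, Slc38a2 was 16733-fold lower than its 194 RPM in the control RNA. On the same floor Slc7a4 was 10516-fold lower, Slc6a17 7577-fold, the cumulus carrier Slc38a3 5031-fold, Slc6a8 1908-fold and Slc7a3 1520-fold. That floor covers counting error only, so these ratios are not lower bounds. Some other members had many reads in 1 oocyte and none in the rest, such as Slc6a3 with 52 and Slc6a12 with 41. Slc6a9 itself averaged 32.3 ± 2.72 RPM over the wild-type females (SD, n = 4). It was 3.81-fold lower than the control RNA and did not pass 4-fold.

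**Figure D2:**
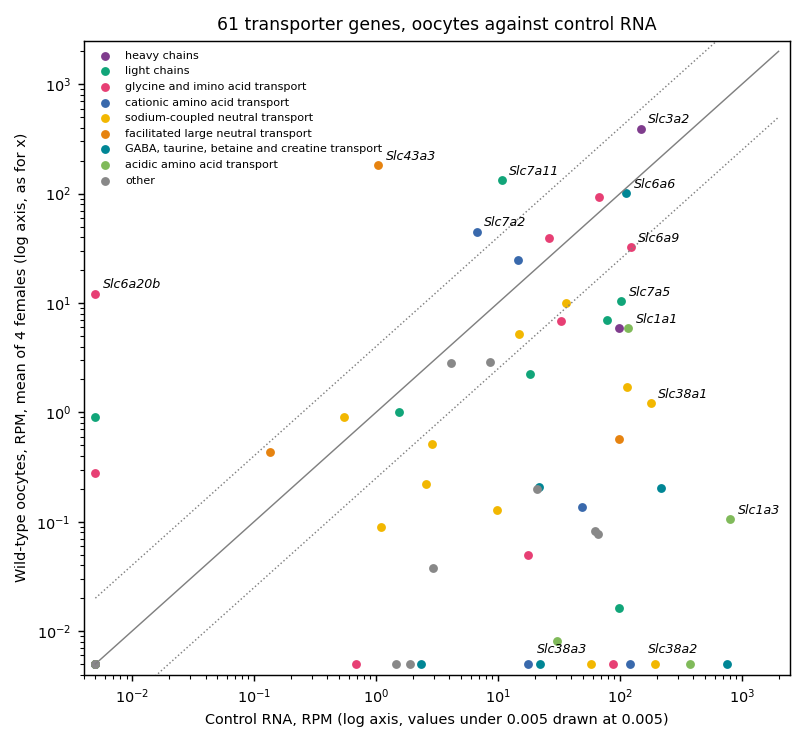
Level of the 61 members in wild-type oocytes (mean of 4 females, RPM, log axis) against the control RNA (RPM, log axis), coloured by role, with values under 0.005 drawn at 0.005; the solid line marks equal levels and the dotted lines 4-fold. Of the 50 members at 1 RPM or more in either, Slc43a3, Slc6a20b, Slc7a11 and Slc7a2 lie above the upper dotted line and 35 below the lower one; the other points are drawn but not counted.

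Several members share exon bases with a gene on the other strand in GENCODE M21, and the labels do not state that strand was kept, so reads of such pairs cannot be told apart where they overlap. Slc6a9 shares 1429 exon bases, 27.8% of its exon length, with Ccdc24. Ccdc24 ranged from 7.57 to 41.0 RPM over the oocytes (median 18.8), and its level went with that of Slc6a9 at Pearson's r of 0.934 and Spearman's rho of 0.895 over 21 oocytes, which share libraries and these bases. Gm17114, with 511 bases in common, gave r of 0.972. The oocyte highest in Slc6a9, transgenic lane 1, was also the highest in both neighbours, at 41.0 RPM of Ccdc24 and 13.7 RPM of Gm17114.

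Slc6a20a shares 563 exon bases with Gm17120, and their levels gave r of 0.927 over the same 21 oocytes. Slc6a20b shares 1800 bases, 21.1% of its exon length, with Sacm1l, although the coordinates of both genes in the expression table do not overlap. Sacm1l stood at 19.2 RPM in oocytes and 140 RPM in the control RNA (r of 0.364). Slc3a1 shares 601 bases, 26.5% of its exon length, with Prepl, which stood at 28.7 RPM in oocytes and 470 RPM in the control RNA (r of 0.731). Slc1a1 shares 2631 bases with 4430402I18Rik, and r was 0.530. How much of each member's count came from the other strand was not tested.

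**Figure D3:**
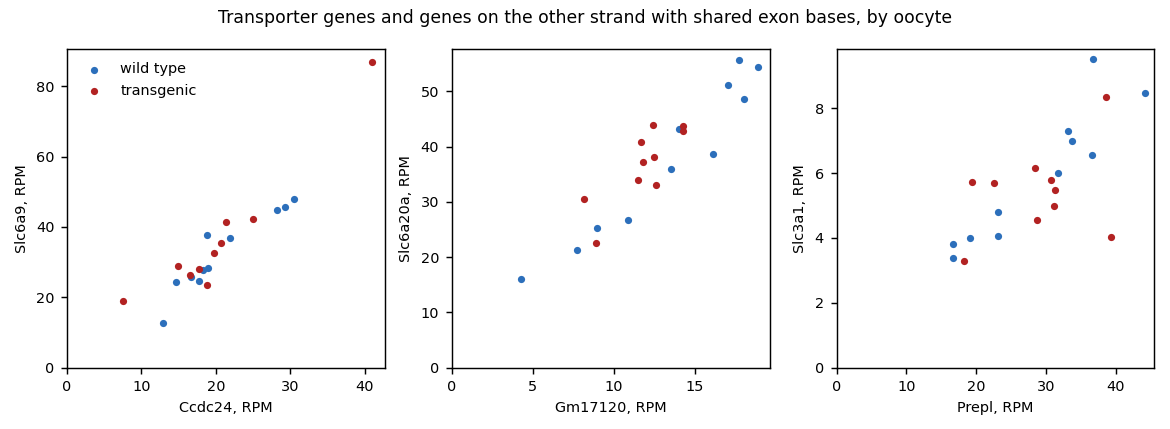
Slc6a9, Slc6a20a and Slc3a1 (RPM) against Ccdc24, Gm17120 and Prepl (RPM), the genes with which they share exon bases on the other strand; each point is 1 of 21 oocytes, coloured by genotype. The pairs rise together, with Pearson's r of 0.934, 0.927 and 0.731, and 1 transgenic oocyte at 86.8 RPM of Slc6a9 lies apart from the rest.

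No member passed the threshold between the genotypes. With limma on log2(RPM + 1), female means and Benjamini-Hochberg adjustment, 0 of 23 members and 0 of 10987 genes (0%) had an adjusted p under 0.05, and limma voom on summed reads called 0 members too. The members' adjusted p in limma ran from 0.726 to 0.992. At an unadjusted p under 0.05 stood 1 of 23 members in limma, Slc6a6, against 6.81% of all genes. With the lane as a block there were 3 of 23, Slc1a1, Slc6a4 and Slc6a6, against 9.36% of all genes. Voom gave 2, Slc1a1 and Slc6a6, and the share of all genes in that fit is not given here. No tested member had females of the 2 genotypes that did not overlap, against 4.31% of all genes.

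Transgenic minus wild type on this scale, 19 members were higher and 4 lower (Slc6a7, Slc38a9, Slc3a1 and Slc7a1). In the alternative fits 10 members changed sign at least once. Of the higher ones Slc6a20a did so in 6 fits and Slc7a6 in 4. Of the lower ones Slc7a1 did so in 4, including median-of-ratios scaling (0.0054). The median difference of the members was 0.21 on the log2 scale, against -0.01 over all genes tested, and 47.8% of all genes were higher. The sum over all members averaged 1242 ± 83.4 RPM over the transgenic females and 1121 ± 162 RPM over the wild type (SD, n = 4 each). The sums overlapped, with transgenic females from 1165 to 1334 RPM and wild-type females from 981 to 1321 RPM. The median SE of a member's difference was 0.24, and differences of that size could not be told from 0 with 4 females a genotype.

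**Figure D4:**
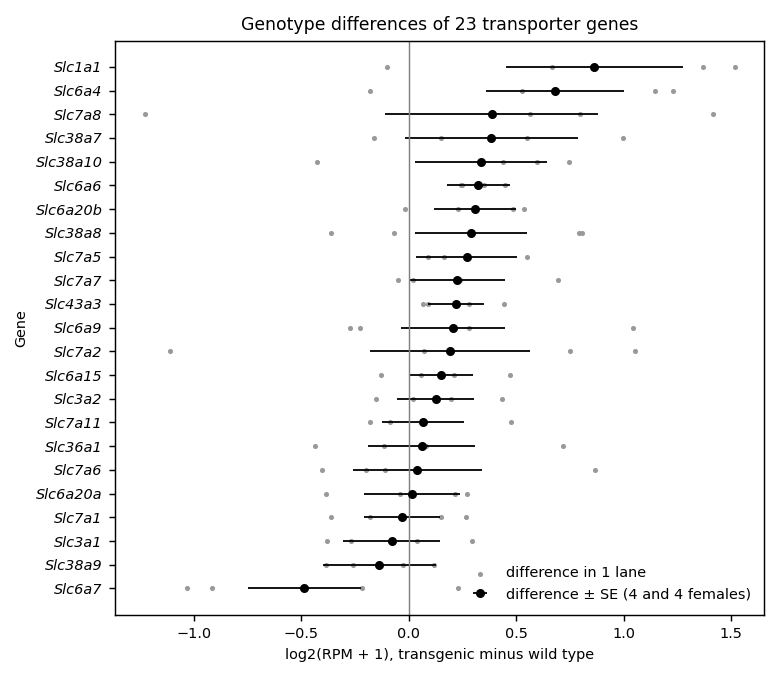
Transgenic minus wild-type difference in log2(RPM + 1) for the 23 tested members; black points with bars are the limma difference ± SE over 4 and 4 females, grey points the difference within each of the 4 lanes. Most points lie right of 0. The 3 members with the same sign in all 4 lanes are Slc6a6, Slc43a3 and Slc7a5, against 18.3% of all genes tested.

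Slc6a6 had the smallest unadjusted p of the members. The taurine transporter averaged 148, 111, 121 and 130 RPM in the transgenic females of lanes 1 to 4 and 113, 91.7, 101 and 95.6 RPM in the wild-type ones. Transgenic exceeded wild type in each lane, and 18.3% of all genes tested kept 1 sign in all lanes. The ranges overlapped, since the lowest transgenic female lay below the highest wild-type one. The difference was 0.32 ± 0.15 (SE), with a limma p of 0.045 and an adjusted p of 0.726. The transgenic female of lane 1 averaged 2 oocytes at 107 and 189 RPM, the second being also the oocyte highest in Slc6a9. Without that female the difference was 0.26 ± 0.14 (SE), and 0 members had an unadjusted limma p under 0.05.

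Slc6a4 and Slc1a1 had larger differences with larger errors. Slc6a4 averaged 9.58, 3.22, 2.73 and 5.91 RPM in the transgenic females of lanes 1 to 4 and 3.27, 1.96, 3.67 and 2.49 RPM in the wild-type ones, a difference of 0.68 ± 0.32 (SE, limma adjusted p = 0.735). Transgenic females were higher in 3 of 4 lanes. Slc1a1 averaged 8.59, 16.9, 9.29 and 7.93 RPM against 11.4, 5.78, 4.05 and 2.16 RPM, a difference of 0.86 ± 0.41 (SE, limma adjusted p = 0.737), again higher in 3 of 4 lanes. With the lane as a block the SE of Slc1a1 was 0.29 and its limma adjusted p 0.456. Both genes scattered widely among the oocytes of a female, with an SD within females of 0.62 for Slc6a4 and 1.36 for Slc1a1 on the log2 scale.

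Slc6a7 had the most negative difference of the members. It averaged 6.87, 2.80, 4.77 and 4.33 RPM in the transgenic females of lanes 1 to 4 and 4.68, 7.41, 5.85 and 9.38 RPM in their lane mates, a difference of -0.48 ± 0.26 (SE, limma adjusted p = 0.764). Its transgenic females were lower in 3 of 4 lanes. Slc43a3 averaged 231, 209, 196 and 213 RPM against 171, 173, 187 and 199 RPM, a difference of 0.22 ± 0.13 with the same adjusted p. It was higher in every lane, and the ranges met where the lowest transgenic female, at 196 RPM, lay under the highest wild-type one.

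Slc6a20b (0.31 ± 0.19), Slc7a5 (0.27 ± 0.24) and Slc38a8 (0.29 ± 0.26) completed the 8 members with the smallest limma p, each as difference ± SE on the log2 scale. Their transgenic females averaged 15.2 ± 1.01, 11.9 ± 3.23 and 1.30 ± 0.598 RPM (SD, n = 4) and their wild-type females 12.1 ± 1.46, 10.4 ± 2.39 and 0.903 ± 0.407 RPM. The abundant heavy chain Slc3a2 averaged 415 ± 62.1 RPM with the transgene and 392 ± 84.1 RPM without it, a difference of 0.13 ± 0.18. Slc7a11 averaged 140 ± 34.6 and 133 ± 23.4 RPM, a difference of 0.07 ± 0.19, and Slc6a15 103 ± 6.32 and 92.6 ± 12.1 RPM, a difference of 0.15 ± 0.15.

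Slc6a9, the carrier that sets egg volume, averaged 64.2, 25.3, 28.4 and 37.4 RPM in the transgenic females of lanes 1 to 4 and 29.1, 35.1, 33.9 and 31.1 RPM in the wild-type ones. Transgenic females were higher in lanes 1 and 4 and lower in lanes 2 and 3, and their range enclosed that of the wild type. The difference was 0.21 ± 0.24 (SE, limma adjusted p = 0.863), with a two-sided exact permutation p of 0.629 over 70 arrangements, of which 0.0286 is the smallest possible. The SD over female means on the log2 scale was 0.55 with the transgene and 0.08 without it, and this contrast was not tested. Within a female the SD was 0.55, and single wild-type oocytes ran from 12.6 to 47.9 RPM, so the wild-type means lay closer together than their oocytes. Without the transgenic female of lane 1 the difference was -0.04. The oocyte of that female at 86.8 RPM came from the deepest library and was the highest in Ccdc24 as well, and the part of either in this value was not tested.

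**Figure D5:**
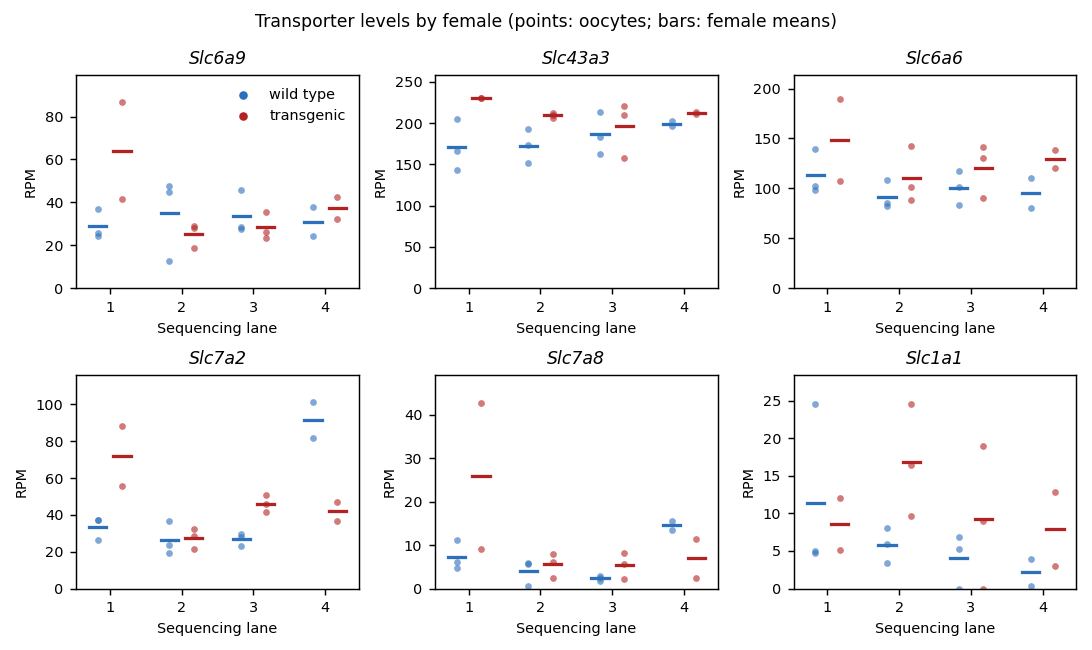
Level in RPM of Slc6a9, Slc43a3, Slc6a6, Slc7a2, Slc7a8 and Slc1a1 by sequencing lane; points are oocytes, bars the mean of each female, blue wild type and red transgenic. The transgenic female of lane 1 is highest for Slc6a9 at 64.2 RPM and for Slc7a8 at 25.9 RPM, and the wild-type female of lane 4 is highest for Slc7a2 at 91.7 RPM.

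The spread of the members among oocytes of a female was wide. The median SD within a female on the log2(RPM + 1) scale was 0.55 for the 23 members and 0.41 over all genes tested, and that between females of a genotype was 0.33 and 0.32; no test was made, since members and other genes differ in level. After Slc1a1 the widest members were Slc38a9 with an SD within females of 0.91, Slc38a7 with 0.88 and Slc7a8 with 0.87.

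Genes that work with these carriers were counted in the same limma fit, and none had an adjusted p under 0.05. In the list for cell volume and pH 15 of 26 tested genes were higher and 11 lower, and 2 had an unadjusted p under 0.05. These were Stk39, a kinase that controls ion cotransport, at 9.22 ± 1.72 RPM with the transgene and 15.8 ± 2.50 RPM without it (SD, n = 4 females each), and Slc9a3r1, a scaffold of the sodium and proton exchangers, at 3.50 ± 0.870 and 2.49 ± 1.14 RPM. For amino acid sensing by mTORC1 14 of 22 were higher and 8 lower, again with 2, Fnip2 at 3.70 ± 2.10 and 0.683 ± 0.280 RPM and the leucine sensor Sesn2 at 4.93 ± 1.37 and 2.80 ± 1.09 RPM. For ATF4 and its targets 9 of 16 were higher and 7 lower, and the 2 at that p were Sesn2 and Atf4 itself, at 42.1 ± 6.54 and 56.1 ± 7.46 RPM in the same order. In the lists for glycine and one-carbon use (7 higher, 8 lower) and for other amino acid carriers (9 higher, 5 lower) 0 genes had an unadjusted p under 0.05. All of these counts are to be read against 6.81% of all genes at that p.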

How the data were processed

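Messenger RNA of single oocytes was amplified with SMART-Seq v4 and made into libraries with ThruPLEX, per the labels' protocols. FastQC, Trim Galore, HISAT2 and the builds GRCm39 and mm39 are named, per the submitters' processing notes; the counting tool is not given in any source used here. Deposited values are on a log2 scale, set by the authors for each library. Their name says RPKM, but they are log2 RPM: entries lacking reads were filled in as 0.9 reads, and 100% of 256342 values between 0 and 2000 reads came within 0.02 of whole reads. Reads and RPM were computed from this, with genes without reads set to 0. Gene coordinates are the table's own and read as GRCm38, since 99.7% of 25035 gene IDs found in GENCODE M21 overlapped their M21 gene, as did all 61 members. Exon lengths are the union of all M21 exons of a gene, and promoters come from RefSeq.

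Log2(RPM + 1) was averaged over the oocytes of each female and tested two-sided with limma 3.58.1 in R 4.3.3 (a trended eBayes fit) over every gene averaging 1 RPM or more, adjusted by Benjamini-Hochberg and called under 0.05. This scale understates changes of low genes. This chosen fit has no term for the lane. The labels make the lane a batch shared by a pair of females, and a fit with the lane as a block was run as an alternative. Deviations of lane mates correlated across genes at -0.04 (lane 1), 0.084 (lane 2), 0.34 (lane 3) and 0.32 (lane 4), and other pairs had a median of -0.05. Nothing states that females are from separate litters, so p-values measure the spread between these females. Wild-type female means were set against the control library without a test, at 4-fold, for genes at 1 RPM or more in either, with 3 reads as the floor for 0; 2-fold, 10-fold, transgenic oocytes, other scalings and each female left out were tried. Named are Slc6a9, the 12 members highest per kb, the 8 with the smallest p, the 5 highest and 5 lowest against the control RNA, those nearest 1 RPM and up to 2 genes a list; others are given by role. The members, the lists and these rules were chosen with earlier results of these data known. Alternatives were the lane block, pseudocount, filters, scalings, oocyte-level fits, voom on recovered reads and leaving out each female. The fits were also run on simulated data, and the outcome is not given here. The simulated differences were larger than those of the members and lay only in more abundant genes. Results for 1 member are not reported here.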

Additional observations from a re-analysis of the deposited data

Results flagged for a closer look

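In 46 sets of 4 females, 1 per genotype and tested member, 2 had a female far from the other 3 by Dixon's criterion, and chance flags about 1 in 20 such groups. Slc7a8 averaged 25.9 RPM in the transgenic female of lane 1, against 5.31 to 6.97 RPM in the other transgenic females, and rested on 1 oocyte at 42.6 RPM beside another at 9.17 RPM. In lane 4 the wild-type female averaged 0.544 RPM of Slc7a6, against 2.66 to 2.89 RPM in the other wild-type females.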

How the results depend on the processing

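No member passed an adjusted p of 0.05 in any of 18 alternatives to the limma fit; the smallest adjusted p was 0.285 (Slc6a6). Over all genes the count was 12 in a fit of single oocytes with a random female effect and a replicate block for lane, and 0 to 1 when each female was left out, the 1 without the transgenic female of lane 1. Members at an unadjusted p under 0.05 (1 by the chosen fit) numbered 3 with the lane as replicate block, 3 with no filter, 2 with median-of-ratios scaling, 0 with scaling by listed genes, 2 with the log of the mean, 3 with single oocytes and the replicate block, 2 with voom and 0 to 2 when each female was left out. The share of all genes at that p was 6.81% in the chosen fit and 9.36% with the lane block. For the other settings it is not given, so their counts cannot be read against a background. Members at a mean of at least 0.1 RPM were 36 and at 10 RPM 12, against 23 at 1 RPM. Of 407 recomputed differences 22 changed sign, in 10 members, while the other 13 members kept their sign. Of the 22, 5 did not come from leaving out a female, namely Slc7a1 at 0.0054 with median-of-ratios scaling, Slc7a6 at -0.024 with single oocytes and at -0.024 with the replicate block added, and Slc6a20a at -0.034 with the log of the mean and -0.029 with voom. The other 17 came from leaving out a female, when the log2 difference ran from -0.044 to 0.37 for Slc6a9, -0.081 to 0.18 for Slc7a11, -0.082 to 0.044 for Slc7a1, -0.032 to 0.60 for Slc7a2, -0.27 to 0.15 for Slc7a6, -0.14 to 0.21 for Slc6a20a, -0.11 to 0.22 for Slc36a1, -0.30 to 0.028 for Slc38a9, -0.055 to 0.81 for Slc7a8 and -0.15 to 0.048 for Slc3a1. The lane block changed no other call, and the cause of these shifts was not tested. With 4 females a genotype and levels under 5 RPM in several members, differences near the SE could not be detected.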
